A study of Rattus norvegicus with 112 samples.

Results

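Primary cultures of rat cortical neurons received nicotine, and part of them then received a pulse of NMDA that was washed out again before the RNA was taken. The comparison described here sets the nic + nmda samples against the nic samples, which differ by that pulse. Members were every array of these groups in the experiment the submitters call Neuroprotection4, which gave 20 of the series' 112 arrays: 5 samples per group, each hybridized in processing run 14985 and again in run 21823. Per the labels, run 21823 holds the same samples as run 14985, and they name an oven failure as the reason for the rerun without saying which run it touched, so an array of one run is a technical repeat and each group has n = 5. The nic + nmda samples had 10 uM nicotine for 18 h and 1 mM NMDA for 30 min. Nic samples had the nicotine alone. Both groups were washed and harvested 24 h later, and both carry the nicotine exposure, so no value below describes nicotine itself. Nothing in the labels says that samples 1 to 5 came from separate cultures, and the p-values then measure the spread between these samples, which may be technical. The controls and the nmda samples of the same experiment were not compared. Where a second NMDA experiment is used, it is either nic + nmda against nic without washing (run 13276, 10 uM nicotine for 18 h and 1 mM NMDA for 60 min, 3 arrays each) or an NMDA pulse without nicotine (run 9136, 1 mM for 30 min, harvest 24 h later, 4 arrays each). For 1 of those 4 NMDA arrays the labels give 30 min in its name and 60 min in its list of conditions, and it was kept as a 30 min array.

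NMDA receptors are glutamate-gated cation channels that let calcium into the neuron. The calcium entry activates kinases and the transcription factor CREB, which drives immediate early genes such as Fos and Nr4a1 and, after them, secreted factors such as Bdnf. Nicotine opens nicotinic acetylcholine receptors, another family of cation channels, and is studied as a neuroprotective agent against excess glutamate signalling.

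The deposited values are linear intensities on arrays scaled by the authors to a common mean, and 1263 probe sets remained after 59 control probe sets were left out. Of these, 884 passed the filter on dim values in each fit of a run. Neuron markers summed to 182278 to 205960 in nic + nmda and 196810 to 220203 in nic over 15 genes in run 21823. Single genes ranged from Nefh, at a mean of 443.8 over the 20 arrays, to Mapt at 54681. Astrocyte markers, which belong to the glia such cultures can hold, summed to 66872 to 83888 in nic + nmda and 78083 to 89675 in nic over 9 genes in that run. Microglia markers summed to only 440.4 to 730.3 in nic + nmda and 292.3 to 927.9 in nic over 4 genes, none of which passed the filter. The 3 endothelial and meningeal markers summed to 3359 to 6322 in nic + nmda and 2317 to 4648 in nic in run 21823. In run 14985 their sums were 3050 to 7512 in nic + nmda and 3475 to 6866 in nic. No marker had a mean of 0 over the 20 arrays, and the lowest was Nos3 at 33.0. The part these cells play in the results was not tested.

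The samples numbered 5 stood apart in both groups and both runs. Their median correlation with the other arrays of their group lay between 0.897 and 0.913, while that of the other samples lay between 0.933 and 0.959. They read low for the stress genes Hspa1a, Hmox1 and Mt1 and for Sst, and high for Tac1 and Egr1, in nic + nmda and in nic alike. The heat shock probe sets for Hspa1a and Hspa1b were also low in nic + nmda sample 3 and nic sample 2. The ratio of the 3′ to the 5′ GAPDH control probe sets, which rises as RNA degrades, averaged 1.36 in nic + nmda and 1.61 in nic in run 21823 (2-sided exact permutation test, p = 0.0317, n = 5 each). It averaged 1.44 in nic + nmda and 1.37 in nic in run 14985 (2-sided exact permutation test, p = 0.278, n = 5 each). The part of these differences in the results was not tested.

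**Figure D1:**
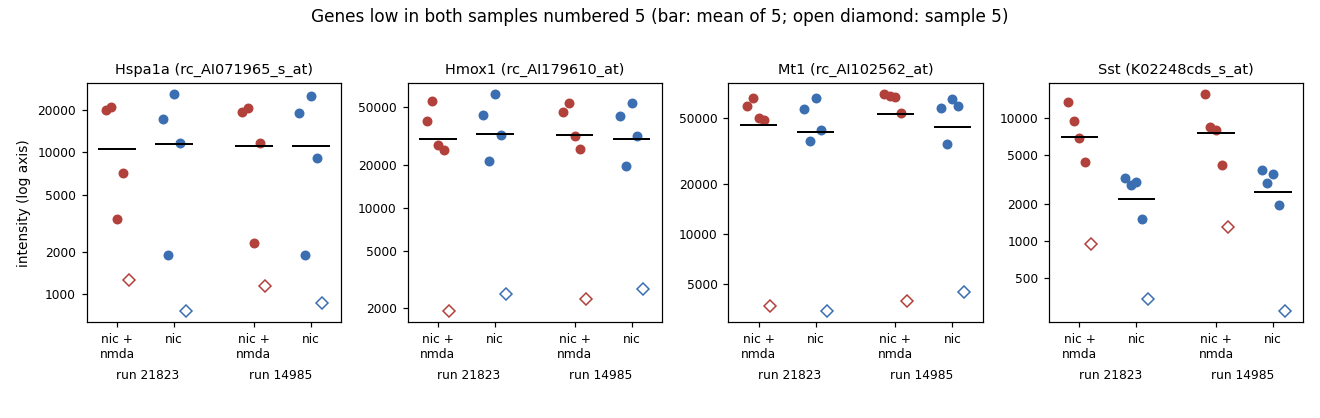
Intensity on a log axis of genes that set the samples numbered 5 apart, in the 5 nic + nmda and 5 nic samples of each run, with 1 point per array open diamonds for the samples numbered 5 and bars for the group means. Hmox1 reads 1897 in nic + nmda sample 5 and 2511 in nic sample 5 of run 21823, while every other sample of that run reads 21079.7 or more.

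Washed-out NMDA was followed by higher levels of a small set of genes 24 h later. In run 21823, 11 probe sets were higher (1.24% of those tested) and 3 were lower (0.339%) in nic + nmda. Run 14985 gave 11 higher (1.24%) and 1 lower (0.113%). With the 2 arrays of each sample averaged, 13 probe sets rose (1.47%) and 3 fell (0.339%), for 14 genes in all. These are counts at an adjusted p under 0.05 from limma with Benjamini-Hochberg adjustment over the 884 probe sets, and 149, 101 and 150 probe sets had an unadjusted p under 0.05 in run 21823, run 14985 and the average. Centring each array on its median turned the split to 7 higher and 7 lower in run 21823 and to 7 higher and 3 lower in the average, and it left the median of all probe sets in run 21823 at -0.07, against 0.06 without centring, on the log2 scale. Without both samples numbered 5, a comparison added after seeing the data, the average gave 34 higher and 26 lower, with 15 of the 16 calls among them. In the fits of a single run, leaving out 1 sample ended every call at least once, except Nr4a3 in both runs, Nefl and Mapt in run 21823 and Bdnf (D10938exon_s_at) in run 14985.

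The transcription factor Nr4a3, an orphan nuclear receptor and an immediate early gene, rose in both runs and on their average. In run 21823 its probe set rc_AI176710_at read 10029.5, 8470.3, 10180.2, 7607 and 6851 in nic + nmda samples 1 to 5, against 3064, 2860.4, 2583, 2686 and 4424 in nic samples 1 to 5. In run 14985 it read 10160.3, 8878, 10906, 8437 and 6563 in nic + nmda, against 3084, 2712, 2570.3, 3715 and 4333 in nic. Every nic + nmda sample lay above every nic sample in both runs, with sample 5 the lowest of the nic + nmda group and the highest of the nic group each time. The log2 change was 1.45 ± 0.17 (SE) on the average of the runs, or 2.73-fold (adjusted p = 0.00235), and 1.46 ± 0.17 in run 21823 (adjusted p = 0.00236) and 1.44 ± 0.18 in run 14985 (adjusted p = 0.00458). Fold changes here are on the scale of intensity plus an offset, which understates the change of dim probe sets. Another Nr4a3 probe set, X86003_at, gave 0.61 on the average and was not called (adjusted p = 0.485). In such bulk samples, more RNA per cell and more cells that express a gene cannot be told apart.

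Its relative Nr4a1, another immediate early nuclear receptor, rose on the average of the runs by both of its probe sets. Probe set U17254_at read 2578, 2439, 2963, 3674 and 1777 in nic + nmda samples of run 21823, against 926, 1687, 1019.7, 1875 and 1073 in nic samples. The repeat arrays of run 14985 read 2384, 2597, 3213, 3034 and 1938 in nic + nmda, against 1185, 1142, 1228, 1742 and 1293 in nic. The groups overlapped in run 21823 and did not in run 14985. Its log2 change was 0.99 ± 0.19 on the average (adjusted p = 0.0299), and 1.02 ± 0.24 in run 21823 (adjusted p = 0.0605) and 0.96 ± 0.17 in run 14985 (adjusted p = 0.0218), so that run 21823 alone did not pass. Probe set U17254_g_at gave 1.09 (adjusted p = 0.0495). Leaving out 1 sample ended the call of U17254_at on the average in 7 of 10 fits, with an adjusted p of up to 0.0942. For U17254_g_at it ended the call in 8 of 10 fits (adjusted p up to 0.148).

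Crem encodes activators and repressors that bind the cyclic AMP response element, the site that CREB also binds. Its probe set S66024_g_at read 2864, 2031, 2314, 2459.6 and 1833 in nic + nmda samples of run 21823, against 832, 1252, 866, 1604 and 883 in nic samples. Run 14985 gave 2530.4, 2241, 2639, 2279 and 1057 in nic + nmda, against 489.8, 1033, 861, 1689.8 and 606 in nic. All 5 nic + nmda samples lay above the nic mean in both runs, and the groups overlapped in run 14985 only. The log2 change was 1.14 ± 0.25 on the average (adjusted p = 0.0495), and 1.07 ± 0.20 in run 21823 (adjusted p = 0.0303) and 1.20 ± 0.33 in run 14985 (adjusted p = 0.137). Omitting any 1 sample in turn ended the call on the average in 8 of 10 fits (adjusted p up to 0.148).

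Among 16 immediate early and activity-regulated genes on the array, each taken by its brightest probe set, 4 rose on the average of the runs, none fell and 12 did not pass. The 4 were Nr4a1, Nr4a3, Crem and Bdnf, and their list had a median log2 change of 0.76 beside 0.04 over all probe sets tested. Run 21823 called 3 of the 16 higher, with a median of 0.72 beside 0.06. Run 14985 also called 3 higher, with a median of 0.75 beside 0.00 over all. Under the alternatives tried the average called between 2 and 7 of the 16: 2 under 5 other settings (among them median centring, quantile normalization and no filter) and in 8 of 10 fits without 1 sample, and 7 without both samples numbered 5 or with the sample number as a replicate block. The list was chosen with earlier results of these data known, so its counts are a description.

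Members of the AP-1 family, the Fos and Jun proteins that pair to bind DNA, did not pass. Fos had log2 changes of 1.17, 1.14 and 0.82 by its 3 probe sets on the average (adjusted p = 0.0738, 0.0822 and 0.139). By the brightest of them, Fos read 9919, 8844, 11536, 12576 and 5966 in nic + nmda samples of run 14985, against 4414, 5779, 4176, 8807 and 5532 in nic samples. All 5 nic + nmda values lay above the nic mean, and the groups overlapped. Fosl2 gave 0.99 ± 0.25 (adjusted p = 0.0822), Junb 0.71 ± 0.21 (adjusted p = 0.108) and Jun 0.29 ± 0.29 (adjusted p = 0.701). Egr1, a zinc finger immediate early factor, gave -0.09 ± 0.38 by its brightest probe set (adjusted p = 0.950) and read highest in samples 4 and 5 of both groups in both runs.

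CREB binds the palindrome TGACGTCA and its half-site TGACG, so the start regions of the called genes were searched for these letters on both strands. Of the 14 genes called on the average, 6 had a promoter in RefSeq's table for build GRCr8 (250 bases before the start to 50 after it), with 13 start regions among them. The half-site stood in 6 of these 13 regions and in 4 of the 6 genes, and the full palindrome in 1 gene, Crem. Over all 33469 start regions of the table, 21.2% held the half-site and 1.829% the palindrome, each palindrome counting as a half-site too. Of the 16 activity-regulated genes above, called or not, 13 had a promoter there. The half-site stood in 11 of these 13 genes and in 13 of their 20 start regions. The palindrome stood in 3 genes, among them Vgf and Jund, which were not called on the average. The shares over the whole table are of regions, and a gene with several regions has more places for a match. Egr1, also not called, held 2 half-sites, while the called genes Adra1d and Gabra5 held none. A match describes letters in this window and is not a binding site shown by these data. The 4 regions below all hold a match and belong to factors and secreted proteins that rose, with the half-site or palindrome in capitals. Nr4a3 and Pnoc, which also rose, had no promoter in the table, and the other start regions of Bdnf held no half-site. Start 3 of Crem holds the palindrome at 2 places (chr17:58985240-58985539, plus strand). Nr4a1 holds 4 half-sites (chr7:134259888-134260187, plus strand), and Nptx2 (chr12:15161996-15162295, minus strand) and start 4 of Bdnf (chr3:116637608-116637907, plus strand) hold 1 each.
Crem start 3: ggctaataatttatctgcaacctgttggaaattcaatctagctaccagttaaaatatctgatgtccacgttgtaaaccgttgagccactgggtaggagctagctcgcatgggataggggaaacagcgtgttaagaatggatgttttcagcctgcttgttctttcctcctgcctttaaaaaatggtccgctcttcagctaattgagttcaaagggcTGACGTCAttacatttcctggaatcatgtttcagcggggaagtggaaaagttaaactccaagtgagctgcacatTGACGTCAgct
Nr4a1: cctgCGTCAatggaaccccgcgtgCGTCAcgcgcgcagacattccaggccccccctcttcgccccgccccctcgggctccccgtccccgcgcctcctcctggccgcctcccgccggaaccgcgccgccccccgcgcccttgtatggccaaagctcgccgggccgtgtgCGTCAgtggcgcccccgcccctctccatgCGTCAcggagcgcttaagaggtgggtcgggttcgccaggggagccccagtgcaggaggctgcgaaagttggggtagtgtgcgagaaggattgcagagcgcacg
Nptx2: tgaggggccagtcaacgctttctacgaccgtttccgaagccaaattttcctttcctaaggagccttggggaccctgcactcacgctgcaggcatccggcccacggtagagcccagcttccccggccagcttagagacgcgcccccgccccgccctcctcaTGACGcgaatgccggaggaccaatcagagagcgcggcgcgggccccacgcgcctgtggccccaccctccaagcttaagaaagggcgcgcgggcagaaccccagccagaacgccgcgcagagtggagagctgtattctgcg
Bdnf start 4: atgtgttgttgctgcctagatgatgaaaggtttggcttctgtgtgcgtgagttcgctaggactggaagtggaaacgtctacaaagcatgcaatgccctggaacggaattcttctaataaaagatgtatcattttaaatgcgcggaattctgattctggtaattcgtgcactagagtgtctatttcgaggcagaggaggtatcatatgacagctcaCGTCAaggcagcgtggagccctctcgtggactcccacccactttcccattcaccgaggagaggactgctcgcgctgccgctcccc

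Bdnf, the brain-derived neurotrophic factor that neurons secrete and that acts on the receptor TrkB, had the largest change of the genes called on the average. Probe set D10938exon_s_at read 2053, 1740.2, 2017, 1470.2 and 823 in nic + nmda samples of run 21823, against 585, 549, 377, 529 and 678 in nic samples. On the arrays of run 14985 it read 2464, 1725, 2153, 1403 and 1010.3 in nic + nmda, against 445, 377, 265, 424 and 136 in nic. Every nic + nmda sample lay above every nic sample in both runs. Its log2 change was 1.83 ± 0.24 on the average, or 3.56-fold (adjusted p = 0.00240), and 1.44 ± 0.25 in run 21823 (adjusted p = 0.0219) and 2.22 ± 0.30 in run 14985 (adjusted p = 0.00505). A second probe set, rc_AI030286_s_at, gave 1.86 ± 0.26 (adjusted p = 0.00424), and its groups did not overlap either. The other 5 Bdnf probe sets had log2 changes between 0.26 and 1.05 on the average and did not pass.

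Nptx2, a secreted neuronal pentraxin that gathers AMPA receptors at synapses, rose as well. Its probe set S82649_r_at read 1572, 1824, 2592, 2959 and 3084 in nic + nmda samples of run 21823, against 736, 1249, 508, 1215 and 678 in nic samples. In run 14985 it read 1653, 1617, 3477, 3497 and 2309.6 in nic + nmda, against 875, 722, 891, 1118 and 1344 in nic. In both runs the lowest nic + nmda sample was above the highest nic sample. The log2 change was 1.34 ± 0.22 on the average (adjusted p = 0.0110), and 1.43 ± 0.28 in run 21823 (adjusted p = 0.0303) and 1.24 ± 0.25 in run 14985 (adjusted p = 0.0437). The brighter probe set S82649_s_at gave 0.85 and did not pass (adjusted p = 0.132).

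Pnoc, the precursor of the opioid-like peptide nociceptin, was the member of the neuropeptide list that passed, by probe set X97374exon_g_at. It read 4507, 4007, 4279, 5090.0 and 3958 in nic + nmda samples of run 21823, against 3118, 2491, 2614, 3112 and 2901 in nic samples. The repeat arrays of run 14985 read 4491, 3425, 3432, 4351 and 3180.5 in nic + nmda, against 1989, 2493, 2099, 2664 and 3157 in nic. Neither run showed any overlap of the groups, with nic + nmda higher. Its log2 change was 0.60 ± 0.12 on the average (adjusted p = 0.0308), and 0.61 ± 0.12 in run 21823 (adjusted p = 0.0304) and 0.60 ± 0.16 in run 14985 (adjusted p = 0.124). Leaving out 1 sample ended the call on the average in 7 of 10 fits (adjusted p up to 0.104). A second Pnoc probe set, S79730_s_at, gave 0.59 on the average and did not pass (adjusted p = 0.238). Of 12 neuropeptide and granin genes tested on the average, 1 rose, none fell and 11 did not pass, with a median of 0.20 beside 0.04 over all. Penk, the enkephalin precursor, gave 0.65 ± 0.22 by probe set S49491_s_at (adjusted p = 0.181) and 0.09 ± 0.18 by probe set rc_AI009300_at (adjusted p = 0.880). Vgf, a secreted granin-like protein, gave 0.54 ± 0.22 (adjusted p = 0.257). Tac1, the substance P precursor, gave -0.14 and -0.01 by its 2 probe sets, with the samples numbered 5 the highest of both groups. Igf1, insulin-like growth factor 1, gave 1.60 ± 0.62 by probe set M15481_g_at (adjusted p = 0.228), 0.77 ± 0.32 by M15481_at (adjusted p = 0.258) and 0.02 ± 0.12 by X06107_r_at (adjusted p = 0.968), and none of the 3 passed.

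**Figure D2:**
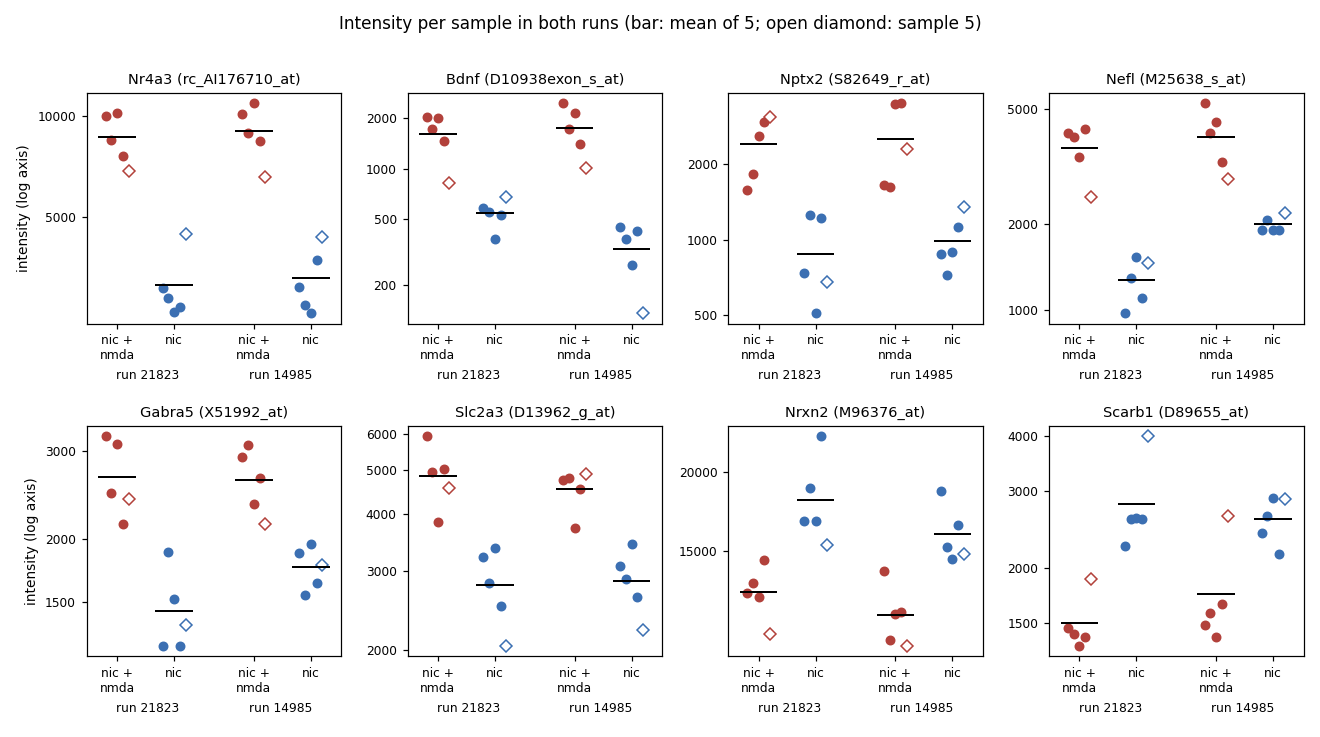
Intensity on a log axis of the leading genes in each of the 5 nic + nmda and 5 nic samples, in each run, with 1 point per array, open diamonds for the samples numbered 5 and bars for the group means. Bdnf, Nr4a3, Nefl, Nptx2 and Gabra5 show no overlap between the groups in either run.

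Nefl, the light chain of the neurofilaments that fill axons, rose in both runs and on their average. Probe set M25638_s_at read 4124, 4010.1, 3415, 4260.0 and 2479 in nic + nmda samples of run 21823, against 974, 1295, 1529, 1101 and 1460.4 in nic samples. Run 14985 gave 5249, 4152, 4513, 3275 and 2854 in nic + nmda, against 1903, 2061, 1895, 1894 and 2179 in nic. Every nic + nmda sample lay above every nic sample in both runs. The log2 change was 1.22 ± 0.15 on the average, or 2.33-fold (adjusted p = 0.00240), and 1.48 ± 0.18 in run 21823 (adjusted p = 0.00236) and 0.96 ± 0.16 in run 14985 (adjusted p = 0.0218). The brighter probe set AF031880_at gave 0.52 and did not pass (adjusted p = 0.0822).

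Gabra5, a subunit of GABA-A receptors, the chloride channels of fast inhibition, rose on the average and in run 21823. It read 3218, 2476, 3099, 2143 and 2402 in nic + nmda samples of run 21823, against 1225, 1883, 1519, 1224 and 1349 in nic samples. On the arrays of run 14985 it read 2916, 3083, 2351, 2650.3 and 2146 in nic + nmda, against 1875, 1547, 1953, 1637 and 1773 in nic. In both runs the lowest nic + nmda sample was above the highest nic sample. Its log2 change was 0.71 ± 0.11 on the average (adjusted p = 0.0110), and 0.87 ± 0.17 in run 21823 (adjusted p = 0.0303) and 0.56 ± 0.13 in run 14985 (adjusted p = 0.0925). A second probe set gave 0.46 and did not pass (adjusted p = 0.438). Of 15 GABA and glycine receptor genes tested, 1 rose and none fell, with a median of 0.21 beside 0.04 over all.

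Slc2a3, the main glucose transporter of neurons, rose in both runs by its probe set D13962_g_at. It read 5936, 4934, 3832, 5016 and 4566 in nic + nmda samples of run 21823, against 3218, 2809, 3367, 2509.6 and 2047 in nic samples. In run 14985 it read 4740.4, 4804, 3717, 4534 and 4885 in nic + nmda, against 3068, 2879.9, 3433, 2624 and 2219 in nic. Neither run showed any overlap of the groups, with nic + nmda higher. The log2 change was 0.73 ± 0.14 on the average (adjusted p = 0.0299), and 0.80 ± 0.17 in run 21823 (adjusted p = 0.0353) and 0.67 ± 0.14 in run 14985 (adjusted p = 0.0459). Omitting any 1 sample in turn ended the call on the average in 6 of 10 fits (adjusted p up to 0.0863). In run 14985 the call was lost in 10 of 10 fits that left out 1 sample (adjusted p up to 0.137). Another Slc2a3 probe set, D13962_at, gave 0.58 ± 0.21 on the average (limma, adjusted p = 0.196) and passed in neither run. Slc2a3 was the only one of 11 glucose transport and energy enzyme genes called by its brightest probe set, and the list's median was 0.01 beside 0.04 over all.

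Atp1b1, the beta subunit of the sodium-potassium pump, rose by 0.40 ± 0.08 on the average by the second of its probe sets (adjusted p = 0.0299). It ranged from 16741 to 20589 in nic + nmda and from 13935 to 14885 in nic in run 21823, and from 17414 to 20190.4 in nic + nmda and from 13179.5 to 15757 in nic in run 14985. Every nic + nmda sample lay above every nic sample in both runs. The brighter probe set rc_AI112173_at gave 0.01 (adjusted p = 0.968), so the 2 probe sets of Atp1b1 disagree. Leaving out 1 sample ended the Atp1b1 call in 6 of 10 fits (adjusted p up to 0.0942). Adra1d, an alpha-1 adrenergic receptor, rose by 0.93 ± 0.21 on the average (adjusted p = 0.0495) and passed in neither run alone (adjusted p = 0.175 in run 21823 and 0.137 in run 14985). It averaged 1152 ± 186 in nic + nmda and 598 ± 164 in nic (SD, n = 5 each), and its call was lost in 10 of 10 fits that left out 1 sample (adjusted p up to 0.130).

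Scarb1, a receptor for high-density lipoprotein that takes up cholesterol, fell on the average and in run 21823. Probe set D89655_at read 1467, 1421, 1333, 1396 and 1895 in nic + nmda samples of run 21823, against 2247, 2592, 2604, 2590.4 and 3996 in nic samples. The repeat arrays of run 14985 read 1489, 1581, 1397, 1663 and 2635 in nic + nmda, against 2406, 2624, 2894, 2151 and 2878 in nic. Sample 5 was the highest nic + nmda sample in both runs and the highest nic sample in run 21823, and the groups overlapped in run 14985 only. Its log2 change was -0.72 ± 0.16 on the average (adjusted p = 0.0495), and -0.86 ± 0.17 in run 21823 (adjusted p = 0.0304) and -0.58 ± 0.18 in run 14985 (adjusted p = 0.176). Omitting any 1 sample in turn ended the call on the average in 9 of 10 fits (adjusted p up to 0.148), while without both samples numbered 5 the change was -0.75 (adjusted p = 0.00591). The 2 other Scarb1 probe sets gave -0.26 and -0.55 and did not pass.

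Nrxn2, a neurexin that joins the presynaptic membrane to its partner across the synapse, fell on the average by probe set M96376_at. It read 12848, 13338, 12654, 14474 and 11059 in nic + nmda samples of run 21823, against 16715, 18860.2, 16751, 22852 and 15308 in nic samples. Run 14985 gave 13923, 10824, 11871, 11997 and 10578 in nic + nmda, against 18692, 15221, 14566, 16486 and 14846 in nic. Every nic + nmda sample lay below every nic sample in both runs. The log2 change was -0.46 ± 0.10 on the average (adjusted p = 0.0459), and -0.48 ± 0.12 in run 21823 (adjusted p = 0.0657) and -0.43 ± 0.11 in run 14985 (adjusted p = 0.110). Other Nrxn2 probe sets did not pass on the average: rc_AI008021_s_at gave -0.32 (adjusted p = 0.183) and rc_AI070512_s_at gave -0.16 (adjusted p = 0.892). Nrxn2 was the 1 of 22 synaptic vesicle and release genes that passed, in a list whose median was -0.09 beside 0.04 over all, and leaving out 1 sample ended its call in 8 of 10 fits (adjusted p up to 0.134).

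Mapt, the microtubule protein tau, fell by a small amount in 1 of its 3 probe sets. Probe set rc_AA957930_s_at ranged from 37936 to 42789.6 in nic + nmda and from 51439.8 to 54501 in nic in run 21823, and from 39294 to 41301 in nic + nmda and from 42258 to 46523 in nic in run 14985. In both runs the highest nic + nmda sample was below the lowest nic sample. Its log2 change was -0.27 ± 0.05 on the average (adjusted p = 0.0299), and -0.42 ± 0.06 in run 21823 (adjusted p = 0.00644) and -0.11 ± 0.06 in run 14985 (adjusted p = 0.492). Leaving out 1 sample ended the call on the average in 7 of 10 fits (adjusted p up to 0.0942). The 2 other Mapt probe sets gave -0.07 and -0.11 and did not pass.

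**Figure D3:**
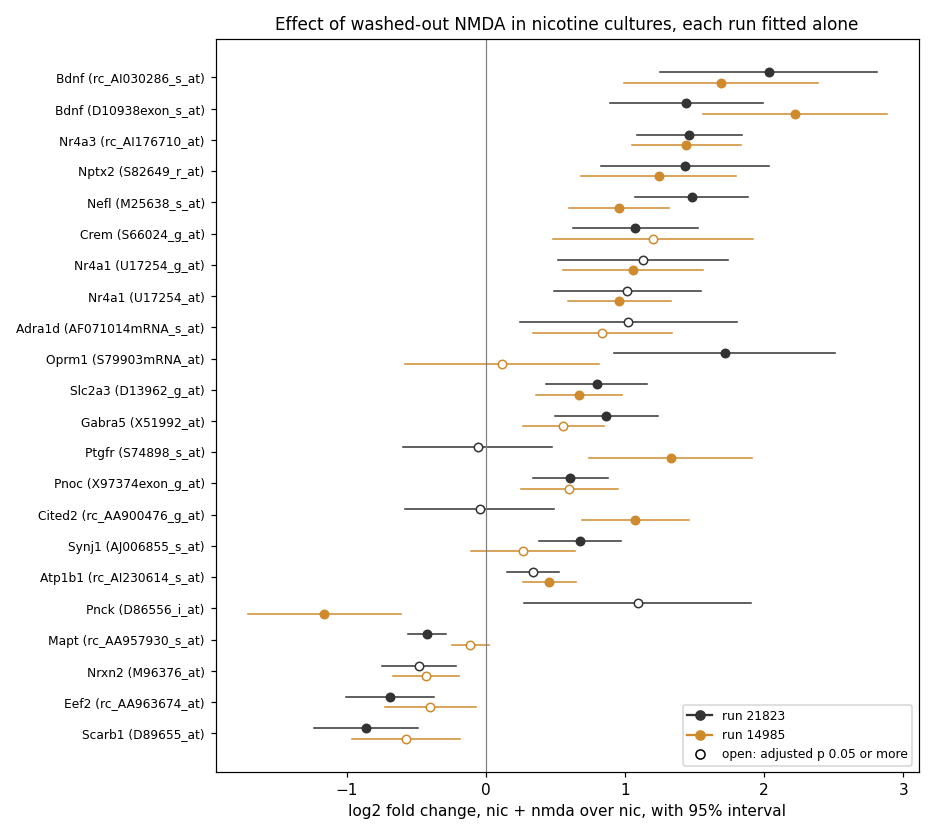
Log2 fold change of nic + nmda over nic with its 95% interval for the probe sets called in either run or on the average, with filled points where the adjusted p is under 0.05 and run 21823 and run 14985 fitted alone. Nr4a3 has 1.46 in run 21823 and 1.44 in run 14985, while Oprm1 has 1.72 and 0.11 and Cited2 has -0.04 and 1.07.

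No subunit of the receptors that the 2 agents act on passed in any of the fits. Over all 884 probe sets tested on the average, 1.47% rose and 0.339% fell, so lists this small can hold no call by that share alone. The absence of a call does not show that these genes were unchanged. For the 6 NMDA receptor subunit genes the log2 changes on the average ran from -0.19 for Grin2a to 0.45 for Grin2c, with a median of -0.02 beside 0.04 over all. The 11 nicotinic receptor subunit genes tested on the average ran from -0.82 for Chrna4 to 0.68 for Chrna7, with a median of 0.12, and 4 further genes of the 15 on the array were too dim to test. None of the 15 ionotropic glutamate receptor genes tested passed on the average, and none of 6 metabotropic glutamate receptor genes. Of 17 sodium and calcium channel genes and 19 potassium channel genes tested, 0 passed, with medians of -0.05 and 0.09.

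Genes of cell death and of the stress response gave no calls on the average either, where 1.47% of all probe sets tested rose and 0.339% fell. At that share, short lists without a call do not show that their genes were unchanged. For 12 cell death genes the median was -0.04, with the lowest value for Faim2, an inhibitor of Fas-driven apoptosis, at -0.68 ± 0.26 (adjusted p = 0.227). The 12 heat shock, oxidative and endoplasmic reticulum stress genes tested had a median of 0.04 and ran from -0.33 for Mt3 to 0.92 for Nos2. Among 27 neurotrophic factors and receptors Bdnf alone passed, and the list's median was 0.01 beside 0.04 over all. The marker lists gave 0 calls among 15 neuron, 9 astrocyte, 5 oligodendrocyte and 2 endothelial or meningeal genes by their brightest probe sets, with medians of -0.09, -0.03, 0.04 and 0.33. Adrb1, the beta-1 adrenergic receptor, gave 0.56 ± 0.26 and did not pass (adjusted p = 0.299).

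Since both runs measured the same 10 samples, the difference between their effects was tested within samples. Each sample correlated with itself across the runs at r between 0.956 and 0.975 over 852 probe sets. Different samples of a group within a run already had median correlations between 0.897 and 0.959. Once the group mean of each probe set was taken out, the r of a sample with itself was between 0.256 and 0.787. By that measure 9 of 10 samples were matched best by their own second array, and nic sample 4 was not. The measured effect of NMDA differed between the runs for 9 probe sets (1.06% of 852, limma on the difference between the 2 arrays of each sample, adjusted p under 0.05), of which 5 were higher in run 21823 and 4 lower. Centring each array on its median gave 3 higher and 6 lower, and quantile normalization 4 higher and 2 lower.

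Gnb1, a beta subunit of G proteins, differed by both of its probe sets. Probe set rc_AI227660_s_at read 13152, 11849, 17841, 15582 and 8581 in nic + nmda samples of run 21823, against 6943, 8142, 6080.4, 7049 and 14366 in nic samples. On the arrays of run 14985 it read 9399, 9438, 12299.8, 12640.0 and 5472 in nic + nmda, against 9588, 12331, 7795, 11335 and 19662 in nic. Sample 5 was the lowest of nic + nmda and the highest of nic in both runs, and the groups overlapped in both. Its effect was 0.68 in run 21823 and -0.29 in run 14985, a difference of 0.97 ± 0.09 (adjusted p = 1.88e-05). The second probe set, rc_AI230404_s_at, differed by 1.04 (adjusted p = 0.00109).

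Pnck, a calcium and calmodulin dependent kinase, had opposite measured effects in the 2 runs of the same samples by probe set D86556_i_at. It read 727, 560.4, 669, 422 and 595 in nic + nmda samples of run 21823, against 218, 273, 354, 66.5 and 511 in nic samples. In run 14985 it read 749.8, 293, 501, 316 and 390.1 in nic + nmda, against 1469, 925, 939, 758 and 1204 in nic. All 5 nic + nmda samples lay above the nic mean in run 21823 and below it in run 14985. The effects were 1.09 ± 0.37 in run 21823 (adjusted p = 0.166) and -1.16 ± 0.25 in run 14985 (adjusted p = 0.0498), a difference of 2.25 ± 0.34 (adjusted p = 0.00236), and on the average the probe set gave -0.04. The other Pnck probe sets were lower in nic + nmda in both runs and were not called with all samples. AB004267_at gave -1.48 in run 21823 (adjusted p = 0.0605) and -0.58 in run 14985 (adjusted p = 0.698), and on the average -1.03 (adjusted p = 0.132), called at -1.20 without both samples numbered 5 (adjusted p = 0.0384). AB004267_g_at gave -0.52 on the average (adjusted p = 0.293).

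Cited2, a transcriptional coregulator that binds CBP and p300, was called higher in nic + nmda by the arrays of run 14985 alone. It read 3354, 2624, 3371, 2219 and 1456 in nic + nmda samples of run 21823, against 3077, 3333, 1911, 2722 and 2112 in nic samples. The repeat arrays of run 14985 read 4156, 2657, 3079, 3009 and 2853 in nic + nmda, against 1672, 1661, 1392, 1637 and 990.3 in nic. The groups overlapped in run 21823 and did not in run 14985. Its effects were -0.04 ± 0.24 in run 21823 (adjusted p = 0.976) and 1.07 ± 0.18 in run 14985 (adjusted p = 0.0194), a difference of -1.12 ± 0.19 (adjusted p = 0.00612). The other differences past the threshold were Drd4, a dopamine receptor, at 1.61 (adjusted p = 0.0438), Nptxr, the neuronal pentraxin receptor, at 0.48 (adjusted p = 0.0161), the Mapt probe set above at -0.31 (adjusted p = 0.0161) and 2 probe sets that match both Hspa1a and Hspa1b, AA848563_s_at at -1.20 and rc_AA818604_s_at at -1.12. Omitting any 1 sample in turn ended the call of Drd4 in 8 of 10 fits (adjusted p up to 0.131), of rc_AA818604_s_at in 7 (up to 0.102), of Nptxr in 2 (up to 0.0613) and of Mapt in 1 (up to 0.0609), and no other.

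Some genes were called in 1 run, and the test of the difference between runs did not pass for them. Oprm1, the mu opioid receptor, gave 1.72 ± 0.36 in run 21823 (adjusted p = 0.0353) and 0.11 ± 0.32 in run 14985 (adjusted p = 0.956) by probe set S79903mRNA_at. Its difference of 1.60 ± 0.48 had an adjusted p of 0.128. In run 21823 it read 1590.3, 1595, 1102, 2102 and 913 in nic + nmda samples, against 354, 186, 359, 341 and 1013 in nic samples, and the groups overlapped. Its call in run 21823 was lost in 13 of 20 alternatives. Another Oprm1 probe set, S77863_s_at, gave -0.04 in run 21823 (limma, adjusted p = 0.986) and 0.13 in run 14985 (adjusted p = 0.975). Synj1, a phosphatase of synaptic vesicle recycling, gave 0.68 ± 0.13 in run 21823 (adjusted p = 0.0304) and 0.27 ± 0.17 in run 14985 (adjusted p = 0.581). Eef2, a translation elongation factor, fell in run 21823 by probe set rc_AA963674_at and gave -0.69 ± 0.14 in run 21823 (adjusted p = 0.0353) and -0.40 ± 0.15 in run 14985 (adjusted p = 0.315); the probe annotation assigns the sister probe set of the same name stem to Map2k2, so the name is uncertain. Ptgfr, the prostaglandin F receptor, gave -0.06 ± 0.24 in run 21823 (adjusted p = 0.960) and 1.33 ± 0.27 in run 14985 (adjusted p = 0.0418). Its difference between the runs was -1.39 ± 0.37 (adjusted p = 0.0961).

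**Figure D4:**
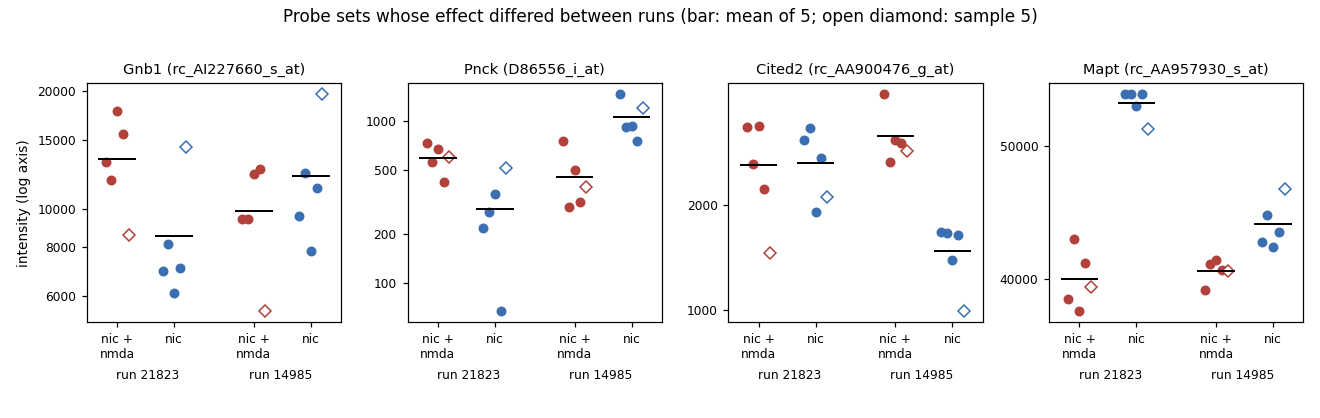
Intensity on a log axis of probe sets whose measured effect differed between the runs, in the 5 nic + nmda and 5 nic samples of each run, with 1 point per array, open diamonds for the samples numbered 5 and bars for the group means. Gnb1 differs by 0.97 and 1.04 on the log2 scale by its 2 probe sets, and Pnck by 2.25.

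The same 30 min of 1 mM NMDA, followed by 24 h, was also given to cultures without nicotine. No probe set differed between the 2 effects after adjustment (0% of 849 tested, limma), while 68 had an unadjusted p under 0.05. The count was also 0 without the NMDA array whose labels give both 30 and 60 min. In the cultures without nicotine the labels give arrays of the same number a shared day. With the number as a replicate block there alone, an alternative added after seeing the data, the count was 0, and with it in both experiments 2 probe sets differed, 1 of them for Tubb5, a beta tubulin, with 0.26 in the nicotine cultures and -0.74 without nicotine (adjusted p = 0.0329), and 1 with no gene named. The smallest adjusted p was 0.171, for Ptk2b, a calcium-activated tyrosine kinase, with -0.17 in the nicotine cultures and -1.47 in the cultures without nicotine. The experiments differ in run as well as in nicotine, so these cannot be told apart, and a p that misses the threshold does not show that the effects were alike. For Nr4a3 the log2 change was 1.45 in the nicotine cultures and 1.45 without nicotine, a difference of 0.00 with a 95% interval from -0.54 to 0.55. Bdnf gave 1.83 with nicotine and 2.68 without it, a difference of -0.85 with an interval from -1.72 to 0.03. Fos gave 0.82 with nicotine and 1.96 without it, a difference of -1.15 with an interval from -1.97 to -0.32 (adjusted p = 0.418). Nr4a1 gave 1.09 with nicotine and 2.22 without it, a difference of -1.13 with an interval from -1.84 to -0.41 (adjusted p = 0.369). Taken by the brightest probe set, every gene of the activity-regulated list but Nr4a3 had a lower change in the nicotine cultures than without nicotine. The differences were -1.11 for Vgf, -1.01 for Nptx2, -0.94 for Crem and -0.81 for Junb, and the median difference over all probe sets was 0.12. They were only -0.03 for Fosl1 and -0.06 for Cebpb. The called Nptx2 probe set S82649_r_at went the other way, at 1.34 with nicotine and 0.99 without it, a difference of 0.35. None of them passed, and the cause was not tested.

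**Figure D5:**
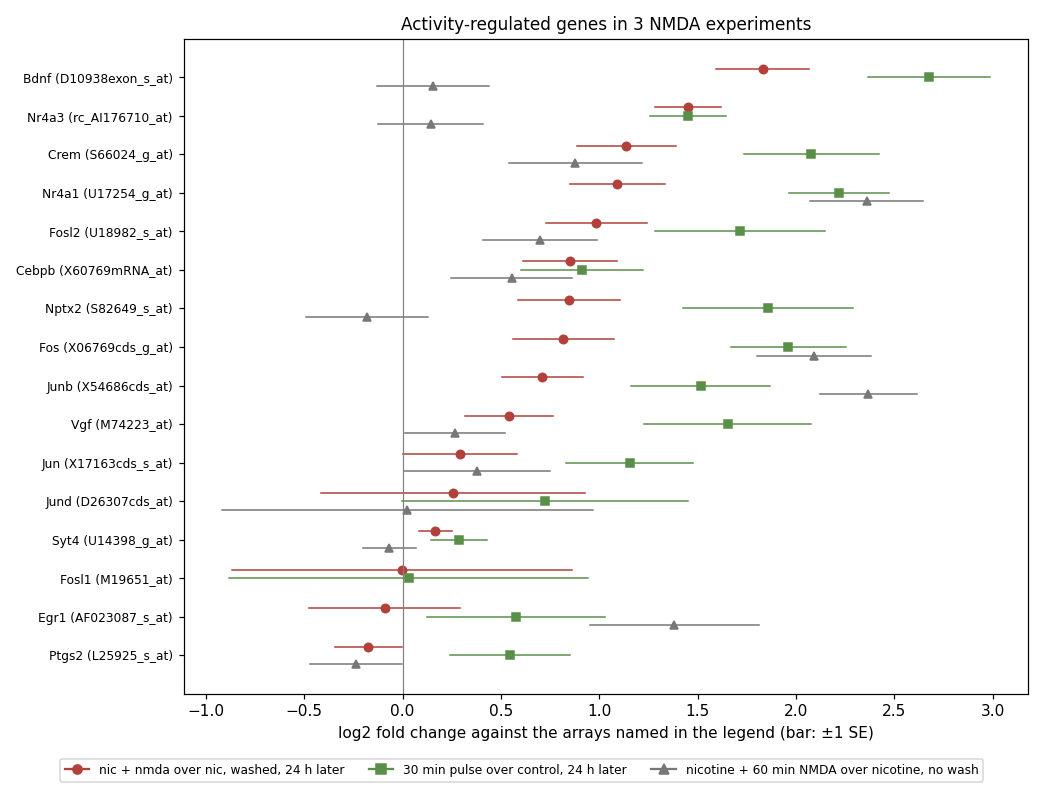
Log2 fold change with 1 SE of the activity-regulated genes after washed-out NMDA in nicotine cultures, after the NMDA pulse without nicotine and after 60 min of NMDA in nicotine cultures without washing. Nr4a3 has 1.45, 1.45 and 0.14, and Junb has 0.71, 1.52 and 2.37. Each gene is shown by its brightest probe set. By that probe set, every gene but Nr4a3 has a lower change in the washed nicotine cultures than after the pulse without nicotine. The called Nptx2 probe set S82649_r_at is not shown and has 1.34 and 0.99 in these 2 settings.

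Against 60 min of NMDA in nicotine cultures that were not washed, 3 probe sets had a different effect (0.356% of 843 tested, limma, adjusted p under 0.05), 2 higher and 1 lower after washing. Length of exposure, washing, time of harvest and run all differ between the experiments and cannot be told apart. Junb, an AP-1 factor of the immediate early response, read 1961, 1724, 1735, 2393 and 1215 in washed nic + nmda of run 21823, against 1208, 877, 1148, 1314 and 1339 in washed nic. In the unwashed samples it read 4823, 4868 and 6255 in nic + nmda, against 1024, 1122 and 807 in nic. The groups overlapped after washing in run 21823, and did not in run 14985 or without washing. The effects were 0.71 after washing and 2.37 without it, a difference of -1.66 ± 0.31 (adjusted p = 0.0303).

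Nefl showed the opposite order. It read 2337, 1724 and 2274 in unwashed nic + nmda, against 2288, 2876 and 2693 in unwashed nic, and these groups overlapped. Its effect was 1.22 after washing and -0.31 without it, a difference of 1.53 ± 0.24 (adjusted p = 0.00947). Atp1b1 gave 0.40 after washing and -0.25 without it, a difference of 0.65 (adjusted p = 0.0392). Bdnf gave 1.83 after washing and 0.16 without it, and the difference did not pass (adjusted p = 0.0602). Leaving out 1 sample ended the call of Atp1b1 in 13 of 16 fits (adjusted p up to 0.149), of Junb in 12 (up to 0.149) and of Nefl in 2 (up to 0.0517). With the washed values taken from run 14985 alone, none of the 3 differences passed, and centring each array on its median left 1 higher and 1 lower. The unwashed arrays of the same number also share a day in the labels. With the number as a replicate block in both experiments 4 differences passed: those of Nefl, Junb, Bdnf (adjusted p = 0.0404) and Sst (adjusted p = 0.0305), the somatostatin precursor, while that of Atp1b1 did not (adjusted p = 0.0544). With the block in the unwashed experiment alone, added after seeing the data, the 4 were Nefl, Junb, Atp1b1 and Nr4a3.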

How the data were processed

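The deposited values were read as intensities, which the authors had scaled: the trimmed mean of each of the 20 arrays lay between 2509 and 2512. No scaling was added here, and the software behind them was not given in these sources. Before log2 was taken an offset was added to each value, namely the 10th percentile among positive values in the run (53.6 in run 21823 and 63.4 in run 14985), and probe sets with a mean below the 30th percentile were left out. The probe annotation pairs 1137 of the 1263 probe sets with 1 gene, 8 with several and 118 with none, and genes were named only from those with 1. It covers 720 genes, of which 718 were found in RefSeq's table under the same symbol.

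Each run was fitted alone on its 10 arrays with limma 3.58.1 in R 4.3.3 (group means, empirical Bayes with an intensity trend, 2-sided), and so were the 2-run mean of each sample and, for the difference between runs, the difference of its log2 values. Differences from the other experiments came from 1 fit over both experiments. P-values were Benjamini-Hochberg adjusted over all probe sets tested, with a threshold of 0.05. The number of arrays limits the precision: the median probe set's 95% interval reached 0.52 to either side in run 21823, 0.46 in run 14985 and 0.41 on the average, on the log2 scale. Start regions came from RefSeq's promoter table.

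Named genes are up to 10 rises and 10 falls per fit past the threshold whose 5 nic + nmda values lie on 1 side of the nic mean, members of gene lists past the threshold, the 5 largest differences in each direction past the threshold (or the 5 smallest p), and a set given whether it passed or not: receptor subunits, Bdnf, Fos, Fosl2, Jun, Junb, Egr1, Nr4a1, Nr4a3, Crem, Penk, Tac1, Vgf, Igf1, Slc2a3, Nptx2, Scarb1, Faim2, Adrb1 and Nefl. The members and lists were chosen with earlier results of these data known, and the lists are described by counts and medians without a test. Alternatives were the normalization, the offset, the filter on dim values, the variance prior, the replicate number as a block, the nmda arrays in the fit and leaving out samples.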

Additional observations from a re-analysis of the deposited data

Results flagged for a closer look

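In 29 named probe sets the 4 groups of 5 arrays were each searched for a sample far from the others, measured as the gap to the nearest sample divided by the whole range of the group. Of 116 groups, 11 exceeded Dixon's critical value of 0.71, and chance would mark about 1 in 20 groups. A sample numbered 5 was the one apart in 6 of the 11. For Scarb1 (D89655_at) it was nic + nmda sample 5 in run 21823 (gap share 0.730, reading 1895) and in run 14985 (0.727, reading 2635), and nic sample 5 in run 21823 (0.745, reading 3996). Crem had nic + nmda sample 5 of run 14985 apart (0.819, reading 1057), Eef2 (rc_AA963674_at) nic sample 5 of run 14985 (0.729, reading 41313) and Gnb1 (rc_AI230404_s_at) nic sample 5 of run 21823 (0.756, reading 6714). The others were nic + nmda sample 3 of run 14985 for Slc2a3 (0.727, reading 3717) and for Eef2 (0.814, reading 32034), nic sample 4 of run 14985 for Atp1b1 (0.766, reading 15757), nic + nmda sample 2 of run 21823 for Adra1d (0.751, reading 602.4) and nic sample 2 of run 14985 for Junb (0.835, reading 514.5).

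The measured effect of NMDA differed between runs of the same samples for 9 probe sets (limma, adjusted p under 0.05), given as run 21823 minus run 14985 on the log2 scale. These were Pnck (D86556_i_at) at 2.25, Drd4 at 1.61, Gnb1 at 1.04 (rc_AI230404_s_at) and 0.97 (rc_AI227660_s_at), Nptxr at 0.48, Mapt (rc_AA957930_s_at) at -0.31, Cited2 at -1.12, and 2 probe sets that match Hspa1a and Hspa1b, AA848563_s_at at -1.20 and rc_AA818604_s_at at -1.12. In the last pair the samples numbered 5, nic + nmda sample 3 and nic sample 2 read low in both runs, as described above. Their part in these differences was not tested.

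The effect after washing differed from that without washing for 3 probe sets, given as washed minus unwashed: Nefl (M25638_s_at) at 1.53, Atp1b1 (rc_AI230614_s_at) at 0.65 and Junb at -1.66. The part of the exposure time, the washing, the harvest time and the run was not tested.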

How the results depend on the processing

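Counts of calls depended on the processing, while no called direction turned. On the average of the runs, Nr4a3, Bdnf (D10938exon_s_at), Nefl, Nptx2 and Gabra5 were called in all 20 alternatives and Bdnf (rc_AI030286_s_at) in the 19 that tested it; the other 10 calls were lost under at least 1 alternative. Against 16 calls, the average gave 10 with median centring, 9 with quantile normalization, 10 without the filter, 9 without the intensity trend and 25 with the nmda arrays in the fit. Against 14 calls, run 21823 gave 7 with quantile normalization, 9 without the trend and 35 with the nmda arrays. Against 12, run 14985 gave 7 with median centring and 7 without the trend. Without both samples numbered 5, added after seeing the data, the average gave 60 calls and run 21823 gave 52. Leaving out 1 sample gave 6 (without nic + nmda sample 2) to 37 (without nic + nmda sample 5) on the average, 3 (without nic + nmda sample 2) to 29 (without nic sample 5) in run 21823, and 2 (without nic + nmda sample 3) to 24 (without nic + nmda sample 5) in run 14985. The 9 differences between runs became 5 to 11, the lowest without nic + nmda sample 5. The 0 differences from the pulse became 2 without pulse control 1. The 3 differences from unwashed cultures became 0 with run 14985 alone and 0 (without unwashed nic + nmda 2 or unwashed nic 2) to 6 (without nic + nmda sample 5). The causes were not tested. Samples of the same number in both groups deviated together with r of 0.27, -0.05, -0.10, 0.24 and 0.57 in run 21823 and 0.46, -0.12, -0.03, 0.42 and 0.66 in run 14985, and nic + nmda samples 1 and 2 correlated best with nic sample 3, sample 3 with nic sample 5 in run 21823 and 2 in run 14985, and samples 4 and 5 with nic samples 4 and 5 in both runs, so the numbers were not taken as pairs. With the number as a replicate block the counts were 54 in run 21823, 19 in run 14985 and 41 on the average, with 2 differences from the pulse. The alternatives not given here, other than fits without 1 sample, left these counts within 1.5 times of the main ones.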

Other observations

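With sample 5 left out of each group, a comparison chosen after seeing the data, further activity-regulated and neuropeptide genes were called higher in nic + nmda on the average of the runs (limma, adjusted p under 0.05, n = 4 each). Sst, the precursor of somatostatin in inhibitory neurons, rose by 1.63 and 1.51 on the log2 scale by its 2 probe sets (adjusted p = 0.0453 and 0.0328). By K02248cds_s_at it read 13446, 9316, 6845, 4354 and 942 in nic + nmda samples 1 to 5 of run 21823, against 3220.3, 2836, 2992, 1525 and 339.9 in nic samples. Among samples 1 to 4 the groups did not overlap, and sample 5 was the lowest of both groups. Gad1, the enzyme that makes GABA, read 8731, 6282, 5063, 3461 and 1357 in nic + nmda samples of run 21823, against 3487, 2475, 2859, 1908 and 927 in nic samples, and rose by 1.04 without the samples numbered 5 (adjusted p = 0.0354). With all 5 samples the log2 changes were 1.40 and 1.55 for Sst and 0.98 for Gad1, and none passed (adjusted p = 0.333, 0.338 and 0.378).

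Without the samples numbered 5, Igf1 rose by 2.06, Fos by 1.34 and 1.33 by 2 probe sets, Fosl2 by 1.03, Junb by 0.86, Penk by 0.86 and Adrb1 by 0.85. The transcription factor Cebpb rose by 0.95, the inducible nitric oxide synthase Nos2 by 1.18 and the chemokine Cx3cl1 by 0.82. Among the 26 lower probe sets, Faim2 fell by 0.85, the synaptic adhesion protein Nlgn3 by 0.98, the L-type calcium channel subunit Cacna1d by 0.77, the postsynaptic scaffold Dlg3 by 0.73, the potassium channel Kcnd3 by 0.71, the vesicle protein Syn2 by 0.70 and the glutamate transporter Slc1a1 by 0.41. These genes were named after their values were seen, and the same samples gave the main counts.

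The 5 smallest p-values for a difference from the pulse without nicotine, none of which passed, belonged to Ptk2b, Mmd, Tf, Tubb5 and Kcnmb1. Tf, the iron carrier transferrin, had a log2 change of 0.70 in the nicotine cultures and -0.90 without nicotine, and Kcnmb1, a subunit of calcium-activated potassium channels, -0.55 and 1.02. The adjusted p was 0.269 for Tf and 0.343 for Kcnmb1.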
